A study of Mus musculus with 6 samples.

Results

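The Wnt pathway genes described here are the ligands, receptors, inhibitors and effectors of Wnt signaling, defined by a rule on gene symbols. The rule took every gene named Wnt, Fzd, Sfrp, Dkk, Ror, *Lrp5* or *Lrp6*, Kremen, Dact, Rspo, *Lgr4* to *Lgr6*, Axin, *Tcf7l1* or *Tcf7l2*, together with 10 further genes (*Ryk*, *Ptk7*, *Wif1*, *Wls*, *Porcn*, *Shisa2*, *Ctnnb1*, *Lef1*, *Rnf43* and *Znrf3*). The rule itself used no expression value, but it was chosen with earlier results of these data known. It found 67 members among the 50600 genes counted. Of these, 47 had more than 1 CPM (reads per gene scaled to the library total) in at least 2 libraries and were tested together with all other protein-coding genes.

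Wnt ligands are secreted lipid-modified proteins that bind Frizzled receptors, either with the co-receptors Lrp5 and Lrp6, which leads to stabilization of beta-catenin, or with receptors such as Ror1, Ror2 and Ryk, which act without beta-catenin. Secreted inhibitors trap the ligand or block the co-receptor, the ligases Rnf43 and Znrf3 remove Frizzled from the cell surface, and R-spondins acting through Lgr receptors counter these ligases. In the heart the pathway is known for its part in cardiac development and, in the adult, in endothelial cells and fibroblasts.

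RNA was sequenced from freshly sorted cardiac side population (SP) cells, which are heart cells that extrude the DNA dye Hoechst, in a comparison that asks how these cells differ when the Flt3 ligand gene is disrupted. The mice were 8 to 12 weeks old and were either wt (C57BL/6NRj) or flt3L-/- (C57BL/6Flt3Ltml/mx, a knock-out of the Flt3 ligand gene). There were 3 libraries of each genotype, and each was made from the SP sorted from the pooled cardiac cells of 4 mice after removal of cardiomyocytes and erythrocytes. Each wt library was sorted on the same date as 1 flt3L-/- library, and these pairs are numbered 1 to 3, with pairs 1 and 2 from 2016 and pair 3 from 2017.

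Total counts were 24370913 to 31145519 per library. On the CPM scale used here, which divides by TMM-scaled protein-coding totals, the limit of 3 counts that is set for detection equals 0.109 to 0.127 CPM and covers counting error only. The targeted gene *Flt3l* (chromosome 7, 45129788 to 45136432 of GRCm38) had 8.66, 10.8 and 12.1 CPM in wt against 13.6, 12.4 and 14.4 CPM under the flt3L-/- label, in the order of the pairs. Its reads were thus not fewer where the label predicts loss, gene-level counts do not show which exons they come from, and 22.1% of its exon bases lie in another gene. For this reason the libraries are called by their labels below, and every direction rests on those labels. In a bulk sort, fewer cells of a type and less RNA per cell cannot be told apart.

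The SP cells carried transcripts of every layer of the pathway, at levels that differed by orders of magnitude. Levels of different genes are compared as CPM per kilobase of exon, averaged over the 6 libraries. *Dkk3*, a Dickkopf-related secreted protein listed with the inhibitors although its action on Wnt was not tested, had 244 CPM per kb. *Ctnnb1*, which encodes beta-catenin, had 147, and the secreted ligand-binding inhibitor *Wif1* 128. Over the libraries, *Dkk3* ran from 121 to 549, *Ctnnb1* from 119 to 201 and *Wif1* from 53.7 to 332 CPM per kb. *Dkk3* exceeded *Wif1* in each library, whereas the place of *Ctnnb1* beside them changed between libraries. The receptor *Fzd4*, known from vascular development, had 58.5 CPM per kb and lay below *Wif1* in each library, although their ranges overlapped. *Fzd6*, at 15.5 CPM per kb, and *Wls*, the carrier that brings Wnt ligands to the cell surface, at 15.5, could not be ordered, since their libraries overlapped. The highest ligand was *Wnt11*, a ligand of the beta-catenin-independent arm, at 6.29 CPM per kb. In the mean it stood below *Sfrp1* at 11.9 and *Sfrp2* at 10.2, secreted Frizzled-related proteins that bind Wnt. *Wnt11* was below *Sfrp2* in each library, but not below *Sfrp1* in every library.

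**Figure D1:**
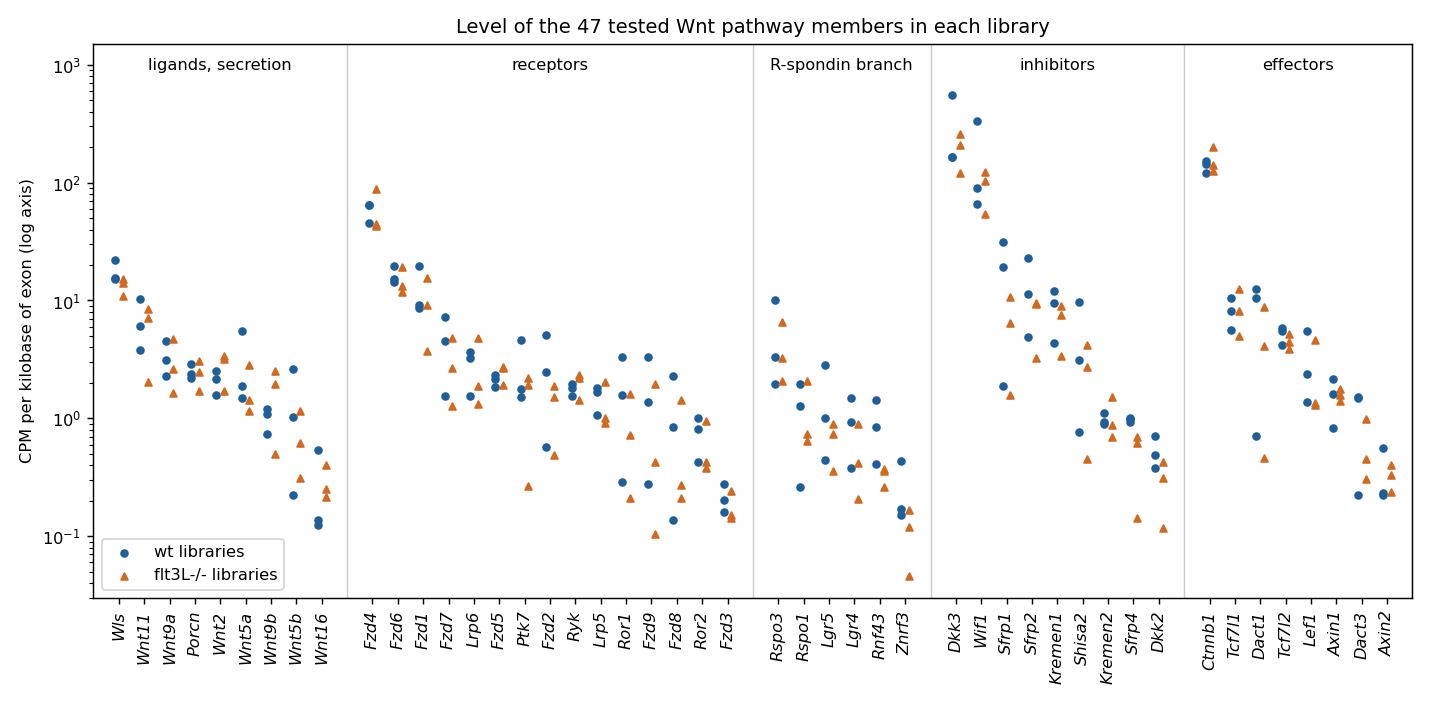
CPM per kilobase of exon (log axis) of the 47 tested members in each library, with blue circles for the 3 wt libraries and orange triangles for the 3 libraries labelled flt3L-/-, grouped by role and ordered by mean level. Dkk3, Ctnnb1 and Wif1 lie highest, at means of 244, 147 and 128 CPM per kb, while the means of the Wnt ligands are at most the 6.29 CPM per kb of Wnt11.

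Most ligand genes were too low to test. Of the 19 Wnt genes, 7 were tested (*Wnt2*, *Wnt5a*, *Wnt5b*, *Wnt9a*, *Wnt9b*, *Wnt11* and *Wnt16*), whereas 12 were not (*Wnt1*, *Wnt2b*, *Wnt3*, *Wnt3a*, *Wnt4*, *Wnt6*, *Wnt7a*, *Wnt7b*, *Wnt8a*, *Wnt8b*, *Wnt10a* and *Wnt10b*). In contrast, 9 of the 10 Frizzled genes were tested, all but *Fzd10*. The remaining untested members were *Dkk1*, *Dkk4*, *Sfrp5*, *Rspo2*, *Rspo4*, *Lgr6* and *Dact2*. Among the 20 untested members, *Rspo4* had 0 counts in all 6 libraries, 10 (*Rspo4* included) never exceeded 3 counts in any library, and the highest single value was 1.27 CPM, for *Dact2* in the pair 2 library labelled flt3L-/-. The limit of 1 CPM left them out, also the 4 (*Lgr6*, *Dact2*, *Wnt2b* and *Wnt4*) that exceeded 3 counts in all 6 libraries. In a fit without this limit, which held 19 of the 20, the smallest adjusted edgeR p among them was 0.984. In all, 51 of the 67 members exceeded 3 counts in each of the 6 libraries.

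No member passed the test of genotype after correction for the number of genes. In edgeR's quasi-likelihood test with the sorting date as a covariate, 0 of 47 members and 0 of 13475 genes (0%) had an adjusted p under 0.05, and adjusted p of the members ran from 0.973 to 0.999. DESeq2 called 21 genes in all, of which 0 were members. With the date in the model, the p-values measure how the differences within pairs spread, not the spread between dates. Each sort pools 4 animals.

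Before adjustment, 9 members had a p under 0.05, and each of them was lower in the libraries labelled flt3L-/-. That is 19.1% of the tested members, whereas 2.49% of all genes tested had such a p with a lower level. In the other direction there were 0 members, against 1.11% of all genes tested. The 9 were *Sfrp1*, *Sfrp2*, *Kremen1*, *Shisa2*, *Ror1*, *Fzd7*, *Fzd9*, *Rnf43* and *Dact1*, with unadjusted values from 0.0155 for *Sfrp1* to 0.0418 for *Shisa2* in edgeR. The study itself lists 6 of them (*Sfrp1*, *Kremen1*, *Shisa2*, *Ror1*, *Fzd7* and *Dact1*) as differentially expressed in these same libraries, so their part of the count is not independent evidence of a direction. Of the 41 tested members that the study does not list, 3 passed, which is 7.32%. DESeq2 gave 10 members an unadjusted p under 0.05, all lower, against 3.52% of all genes. Without pair 1 the count was 3, and these members (*Dact1*, *Fzd4* and *Lgr4*) were lower at a p under 0.05, against 1.97% of all genes. It was 5 without pair 3, with *Sfrp1*, *Ror1*, *Fzd7* and *Dact1* lower and *Wnt9b* higher, against 1.06% of all genes lower. Without pair 2 it was again 9, all lower, against 5.7% of all genes lower, but 3 of these (*Sfrp2*, *Shisa2* and *Rnf43*) were among the original 9, and the other 6 were *Dkk3*, *Wif1*, *Wnt5a*, *Ptk7*, *Fzd1* and *Wls*. *Kremen1* and *Fzd9* had a p over 0.05 with any of the 3 pairs left out.

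Most members lay lower under the flt3L-/- label, whether or not their p was under 0.05. The log2 fold change, given throughout as flt3L-/- against wt, was below 0 for 36 of 47 members, or 76.6%, and for 6742 of all 13475 genes tested. Its median over the members was −0.38, against −0.0003 over all genes tested. Within pairs 1, 2 and 3 the members' median log2 difference was −0.59, −0.16 and −0.31, with an SD of 0.218 over the pairs, and 33, 30 and 36 of the 47 members were lower. In each of the 3 pairs 18 members were lower (38.3%, against 11.5% of all genes tested), whereas 0 were higher in each pair (14.2% of all genes tested). Of the 41 members that the study does not list, 12 were lower in each pair and the median was −0.30.

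**Figure D2:**
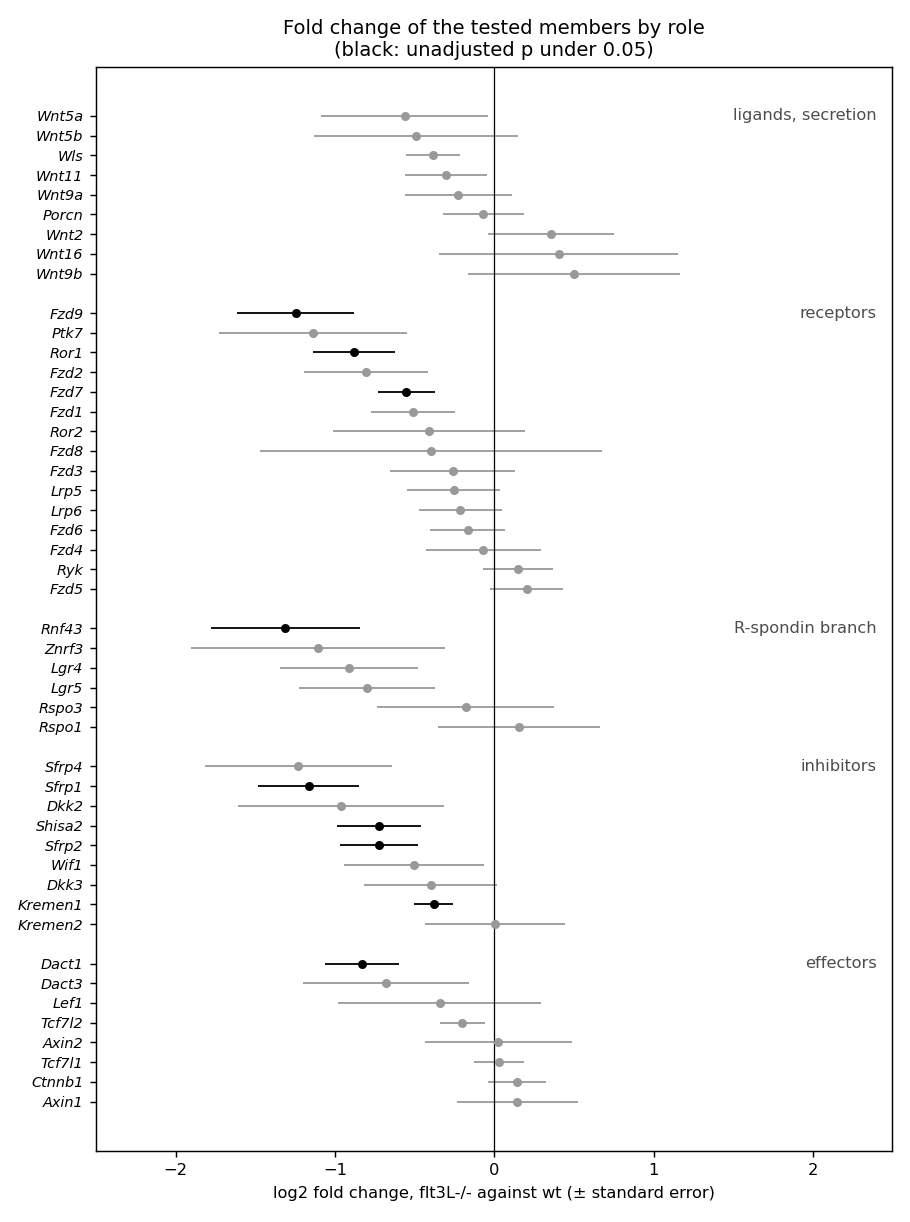
Log2 fold change of the 47 tested members, flt3L-/- against wt, with its standard error from the edgeR fit (n = 3 libraries a group), ordered within each role. Black marks the 9 members with an unadjusted p under 0.05, all of them to the left of 0, and 36 of 47 points lie below 0.

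The extracellular inhibitors held 4 of the 9 members with an unadjusted p under 0.05, more than any other role. All of these but *Sfrp2* are among those that the study lists from the same libraries. Of 12 genes in this role 9 were tested, 8 of these had a log2 fold change below 0, and 6 were lower in each pair. The shares of all genes tested, to be set beside each role, were 2.49% lower at such a p and 11.5% lower in each pair. The role's median log2 fold change was −0.73. *Sfrp1* (chromosome 8, 23411502 to 23449632 of GRCm38) had 138, 84.8 and 8.30 CPM in wt against 46.7, 28.1 and 6.96 CPM under the flt3L-/- label, in the order of the pairs. It was lower in every pair, by far the least in pair 3, and the groups overlapped because both libraries of pair 3 lay below the rest. The means were 77.1 ± 65.4 and 27.3 ± 19.9 CPM (SD, n = 3), and the log2 fold change was −1.16 ± 0.32 (SE), with an adjusted edgeR p of 0.973.

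*Sfrp2* (chromosome 3, 83766321 to 83774316), its close relative, had 49.4, 24.7 and 10.6 CPM in wt against 20.1, 20.4 and 6.999 CPM under the flt3L-/- label. Its log2 fold change was −0.73 ± 0.24 (SE), with the largest gap in pair 1, and 16.1% of its exon bases also lie in another gene. *Kremen1* (chromosome 11, 5191552 to 5261558), a receptor for Dickkopf proteins that helps to remove Lrp6 from the surface, had 92.2, 74.2 and 33.8 CPM in wt against 69.8, 58.3 and 25.9 CPM under the flt3L-/- label. Its 3 pairs gave nearly the same difference, −0.40, −0.35 and −0.39 on the log2 scale, the most even of the 9 members. The fitted value was −0.38 ± 0.12 (SE). *Shisa2* (chromosome 14, 59625308 to 59631660), whose protein holds Frizzled and FGF receptors back inside the cell, had 35.7, 11.6 and 2.79 CPM in wt against 15.3, 10.1 and 1.66 CPM under the flt3L-/- label. In wt alone it spanned the range from 2.79 to 35.7 CPM, wider than the gap between the genotypes in any pair, and its log2 fold change was −0.73 ± 0.26 (SE).

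The most abundant genes listed with the inhibitors had another order of pairs than *Sfrp1*. *Dkk3* had 1846, 557 and 549 CPM in wt against 700.1, 869 and 407 CPM under the flt3L-/- label. *Wif1* had 807, 219 and 161 CPM in wt against 252, 299 and 130 CPM under the flt3L-/- label. Both were lower in pairs 1 and 3 and higher in pair 2, and for both the wt library of pair 1 stood far above the other 5. Their log2 fold changes were −0.40 and −0.50, with standard errors of 0.42 and 0.44, and without pair 1 they were 0.10 and 0.07. *Sfrp4*, at 4.16, 3.88 and 4.20 CPM in wt against 2.58, 2.93 and 0.593 CPM under the flt3L-/- label, was a low transcript whose groups did not overlap. The remaining inhibitors were *Dkk2*, a ligand of Lrp6, at a log2 fold change of −0.96 and *Kremen2* at 0.004. A gap without overlap, with every library labelled flt3L-/- below every wt library, was seen for 3 members (*Sfrp4*, *Rnf43* and *Wls*), or 6.38%, against 2.92% of all genes tested.

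Among the receptors, 15 of 16 were tested, 3 had an unadjusted p under 0.05, 5 were lower in each pair, and the median log2 fold change was −0.40. *Ror1* (chromosome 4, 100095791 to 100444765), a tyrosine kinase-like receptor for Wnt5a, had 19.0, 9.07 and 1.68 CPM in wt against 9.32, 4.20 and 1.23 CPM under the flt3L-/- label. Its level in the libraries labelled flt3L-/- was below that of wt in each pair, yet the pair 1 library labelled flt3L-/- exceeded the wt libraries of pairs 2 and 3. Its log2 fold change was −0.88 ± 0.26 (SE). *Ror2*, its paralog, had 1.83, 4.26 and 3.42 CPM in wt against 4.04, 1.82 and 1.62 CPM under the flt3L-/- label, higher in pair 1 and lower in the other pairs.

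*Fzd7* (chromosome 1, 59482424 to 59486955) had 32.9, 20.4 and 7.07 CPM in wt against 21.8, 12.04 and 5.77 CPM under the flt3L-/- label, with a log2 fold change of −0.55 ± 0.18 (SE). *Fzd9* (chromosome 5, 135248938 to 135251230) was scarcer, with 7.54, 3.14 and 0.633 CPM in wt against 4.48, 0.975 and 0.237 CPM under the flt3L-/- label, and a log2 fold change of −1.25 ± 0.37 (SE). Both receptors were lower in each pair and highest in pair 1. The abundant Frizzled genes differed from them in pattern. *Fzd4* had 308, 437 and 430 CPM in wt against 596, 286 and 300.0 CPM under the flt3L-/- label, higher in pair 1 and lower in the other pairs, with a log2 fold change of −0.07 ± 0.36 (SE). *Fzd6* had 72.7, 94.6 and 68.6 CPM in wt against 92.4, 56.6 and 63.6 CPM under the flt3L-/- label, again higher in pair 1 and lower in the others. *Fzd1*, at 81.8, 38.6 and 36.0 CPM in wt against 64.8, 38.4 and 15.7 CPM under the flt3L-/- label, was lower in each pair but by only −0.01 on the log2 scale in pair 2. The co-receptors *Lrp5* and *Lrp6*, needed for the beta-catenin arm, had log2 fold changes of −0.26 and −0.21, with standard errors of 0.29 and 0.26. The other receptors ran from −1.14 for *Ptk7*, a pseudokinase of the polarity arm, through −0.80 for *Fzd2* and −0.40 for *Fzd8* to 0.15 for the kinase-dead receptor *Ryk* and 0.20 for *Fzd5*.

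**Figure D3:**
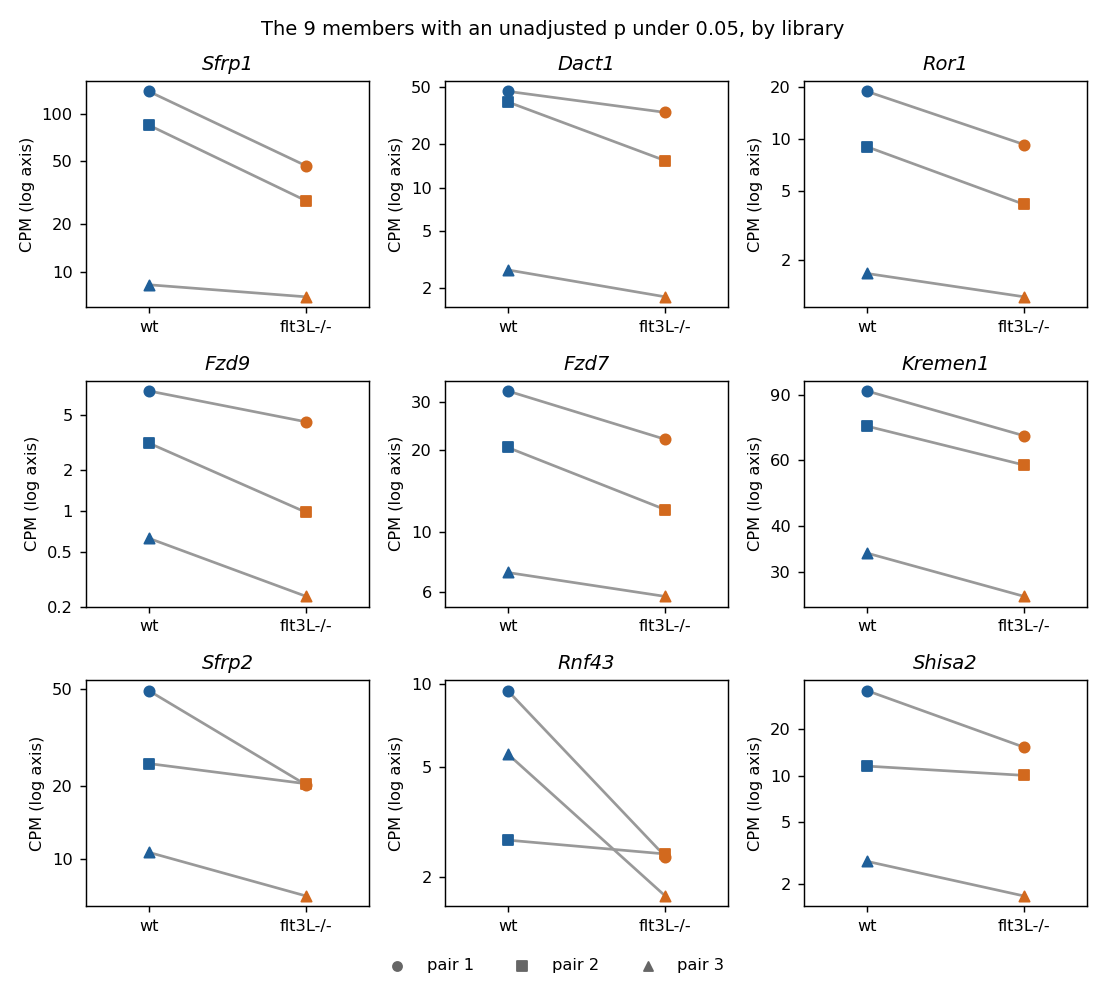
CPM (log axis, scaled for each gene) of the 9 members with an unadjusted p under 0.05 in wt and in the libraries labelled flt3L-/-, with grey lines joining libraries sorted on the same date (circles pair 1, squares pair 2, triangles pair 3). Every line slopes down, from 138 to 46.7 CPM for Sfrp1 in pair 1, and for 8 of the 9 genes both libraries of pair 3 lie below the others; Rnf43 is the exception.

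The R-spondin branch was the lowest role in median, at −0.86, with 6 of 9 genes tested, 1 with an unadjusted p under 0.05 and 4 lower in each pair. *Rnf43* (chromosome 11, 87662722 to 87735539), the membrane ligase that clears Frizzled and is itself a transcript induced by beta-catenin in several tissues, had 9.48, 2.71 and 5.58 CPM in wt against 2.37, 2.42 and 1.70 CPM under the flt3L-/- label. Every wt library exceeded every library labelled flt3L-/-, although the margin in pair 2 was small. Its log2 fold change was −1.31 ± 0.47 (SE), the largest in size of all members, and it was the 1 member with a p under 0.05 when the sorting date was left out of the model. *Znrf3*, the related ligase, had a log2 fold change of −1.11 ± 0.80 (SE) at 0.182 CPM per kb.

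The receptors *Lgr4* and *Lgr5* had log2 fold changes of −0.91 and −0.80, with standard errors of 0.43 each. *Lgr5* had 28.9, 10.3 and 4.54 CPM in wt against 7.53, 9.20 and 3.68 CPM under the flt3L-/- label, and its gap came mainly from the wt library of pair 1. *Rspo3*, an R-spondin known from endothelial and stromal cells, had 31.3, 10.2 and 6.03 CPM in wt against 9.97, 20.1 and 6.41 CPM under the flt3L-/- label, lower in pair 1 and higher in pairs 2 and 3. *Rspo1* had 0.505, 3.76 and 2.46 CPM in wt against 1.24, 4.03 and 1.42 CPM under the flt3L-/- label, with no shared direction over the pairs.

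Inside the cell the differences were smaller, with a median log2 fold change of −0.09 over the 8 of 9 effectors tested. *Ctnnb1* had 621, 750.1 and 788 CPM in wt against 731, 648 and 1044 CPM under the flt3L-/- label, higher in pairs 1 and 3 and lower in pair 2. Other genes share 15.1% of its exon bases, and its log2 fold change was 0.14 ± 0.18 (SE). The repressor-type TCF gene *Tcf7l1* had 41.2, 31.8 and 22.1 CPM in wt against 49.4, 31.7 and 19.6 CPM under the flt3L-/- label, with a log2 fold change of 0.03 ± 0.16 (SE). Both were within the spread of the libraries. *Axin2*, a feedback inhibitor and a widely used readout of beta-catenin activity, had a log2 fold change of 0.02 ± 0.46 (SE). It was a low transcript, with 33 to 80 counts per library, and its pairs differed by −0.75, 0.75 and 0.08. The exception in this role was *Dact1* (chromosome 12, 71309884 to 71320107), a partner of Dishevelled that modulates both arms, with 46.7, 39.5 and 2.68 CPM in wt against 33.3, 15.4 and 1.74 CPM under the flt3L-/- label. It was lower in each pair, most in pair 2, and its 4 libraries of 2016, at 15.4 to 46.7 CPM, lay far above those of 2017. Its log2 fold change was −0.83 ± 0.23 (SE). Because 34.9% of its exon bases lie in another gene and the libraries were unstranded, reads of both genes cannot be told apart there. The other effectors were its paralog *Dact3* at −0.68, the transcription factors *Lef1* at −0.34 and *Tcf7l2* at −0.20, and the scaffold *Axin1* at 0.15.

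The ligands had 0 members with an unadjusted p under 0.05 and 1 of 9 lower in each pair, *Wls*. *Wls* had 193, 134 and 136 CPM in wt against 124, 133 and 96.4 CPM under the flt3L-/- label, a log2 fold change of −0.38 ± 0.17 (SE). Its groups did not overlap, but in pair 2 they differed by −0.01 on the log2 scale. *Wnt11* had 42.3, 25.01 and 15.7 CPM in wt against 35.2, 29.6 and 8.34 CPM under the flt3L-/- label. *Wnt9a* had 15.2, 10.4 and 7.55 CPM in wt against 8.70, 15.8 and 5.46 CPM under the flt3L-/- label. Both were higher in pair 2 and lower in the other pairs, as was *Wnt5a*, the ligand of the Ror receptors, with 42.8, 14.7 and 11.6 CPM in wt against 11.1, 22.3 and 8.98 CPM under the flt3L-/- label. The remaining ligands ran from −0.49 for *Wnt5b* to 0.50 for *Wnt9b*, and *Porcn*, the enzyme that acylates Wnt, stood at −0.07. Over the role, the pair medians of −0.64, 0.60 and −0.46 pointed in both directions.

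The sequences just upstream of the transcription start are shown for *Ror1*, *Fzd7*, *Dact1* and *Shisa2*, since these were listed by the study, were lower in each pair and have an entry among the RefSeq promoters of GRCm38.p6. Each run is the 250 bases before the annotated start, 5′ to 3′ on the gene's plus strand, and capitals mark the GC box GGGCGG, the core of sites for Sp1-type factors, on either strand with overlapping matches joined. The positions are chr4:100095541-100095790 for *Ror1*, chr1:59481897-59482146 for *Fzd7*, chr12:71309634-71309883 for *Dact1* and chr14:59625031-59625280 for *Shisa2*.
Ror1: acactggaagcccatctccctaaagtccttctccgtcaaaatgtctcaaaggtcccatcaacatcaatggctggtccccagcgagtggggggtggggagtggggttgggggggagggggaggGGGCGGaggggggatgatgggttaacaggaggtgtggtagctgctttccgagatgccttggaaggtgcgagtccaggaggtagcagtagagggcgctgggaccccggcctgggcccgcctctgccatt
Fzd7: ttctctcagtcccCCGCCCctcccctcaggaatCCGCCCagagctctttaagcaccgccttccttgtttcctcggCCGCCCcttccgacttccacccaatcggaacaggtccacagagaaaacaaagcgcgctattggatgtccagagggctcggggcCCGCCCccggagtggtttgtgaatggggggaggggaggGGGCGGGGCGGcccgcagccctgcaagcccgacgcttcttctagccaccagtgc
Dact1: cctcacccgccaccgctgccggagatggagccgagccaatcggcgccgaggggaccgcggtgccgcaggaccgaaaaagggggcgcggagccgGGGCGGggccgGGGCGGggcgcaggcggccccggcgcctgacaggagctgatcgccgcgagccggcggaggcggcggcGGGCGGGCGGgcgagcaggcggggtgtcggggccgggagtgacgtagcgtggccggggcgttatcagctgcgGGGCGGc
Shisa2: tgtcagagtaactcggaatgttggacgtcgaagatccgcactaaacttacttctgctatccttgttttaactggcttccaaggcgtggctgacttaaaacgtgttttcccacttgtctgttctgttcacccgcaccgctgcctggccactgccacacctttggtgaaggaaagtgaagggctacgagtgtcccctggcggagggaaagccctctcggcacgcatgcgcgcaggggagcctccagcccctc

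*Fzd7* held 6 matches to GGGCGG, *Dact1* 5, *Ror1* 1 and *Shisa2* 0. Promoter entries were found for 46 of the 67 members, 55 entries in all. GGGCGG was present in 40 of these entries, or 72.7%, against 32.7% of all 32851 promoters. These promoters, of 27025 genes, were not restricted to protein-coding genes. Of the 8 entries for members with an unadjusted p under 0.05, 4 held GGGCGG, or 50%. The members' promoters were also richer in G and C, with a median of 66.4% against 52.4%, and GGGCGG consists of these bases. Sites of the kind that TCF and LEF factors bind, searched as CTTTGAT or CTTTGAA on either strand with no overlap between them, were present in 3 of 55 member entries, or 5.45%, against 7.48% of all promoters. None of the 4 sequences shown held one, which says only that these letters are not in these windows.

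More members had an unadjusted p under 0.05 for the date of the sort than for genotype, and so did more of all genes tested. For genotype, 2.49% of all genes tested were lower and 1.11% higher at such a p. The date has 3 levels, so its test joins several comparisons, unlike that of genotype. In a test of the sorting date in the same edgeR fit, chosen after the values had been seen, 16 of 47 members had an unadjusted p under 0.05, which is 34.0%, against 8.28% of all genes tested, and 0 passed after adjustment. Of the 16, 15 were highest on the date of pair 1, intermediate on that of pair 2 and lowest in the 2017 pair. They included 8 of the 9 members with an unadjusted genotype p under 0.05, all but *Rnf43*. For 8 of the 9, the SD of CPM among the wt libraries exceeded the difference between the group means. *Dact1* had the smallest date p, at 0.000163, followed by *Shisa2* at 0.000622, *Kremen1* at 0.000714 and *Ror1* at 0.000770, unadjusted values of edgeR. The wt library of pair 1 was the highest of the 6 for 26 of 47 members (19.3% of all genes tested), and the pair 3 library labelled flt3L-/- was the lowest for 28 (25.2% of all genes tested). These 2 libraries lie at opposite ends of both the date order and the genotype contrast.

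Members differed in which pairs carried their difference. Besides the 18 that were lower in each pair, 8 (*Dkk3*, *Wif1*, *Lef1*, *Wnt11*, *Wnt9a*, *Wnt5a*, *Ptk7* and *Fzd3*) were lower in pairs 1 and 3 and higher in pair 2. Another 6 (*Fzd4*, *Fzd6*, *Lrp5*, *Lrp6*, *Ror2* and *Tcf7l1*) were higher in pair 1 and lower in pairs 2 and 3. Across roles the order of the pairs differed as well. The inhibitors had pair medians of −1.29, −0.28 and −0.39, and the R-spondin branch −1.79, −0.10 and −0.53, both lowest in pair 1. The receptors had 0.27, −0.74 and −0.22, lowest in pair 2. The effectors, with −0.20, −0.15 and −0.02, stayed near 0 in each pair.

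**Figure D4:**
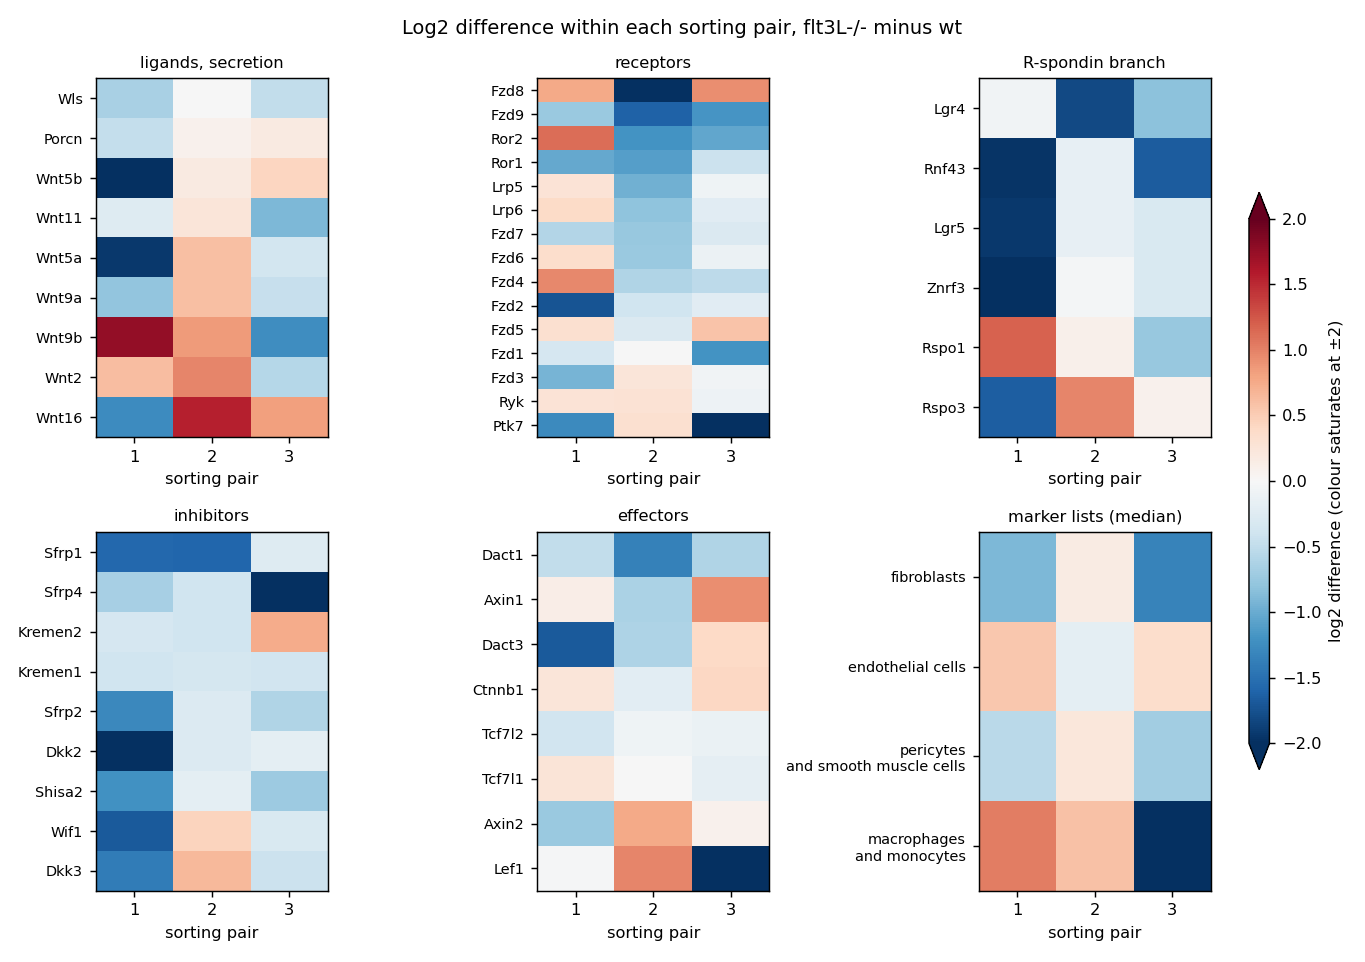
Log2 difference within each sorting pair, flt3L-/- minus wt, for the tested members of each role (blue lower, red higher, colour saturating at 2), with the median of 4 lists of cell type markers in the last panel. Sfrp1, Fzd7, Ror1 and Dact1 are blue in all 3 columns, whereas Dkk3 and Wif1 turn red in pair 2, where the fibroblast list has its only positive median, 0.16.

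Markers of cell types that the sort could hold differed between the libraries too. All 5 genes of the dye efflux and side population list were detected in each library. They summed to 1811, 2307 and 2526 CPM in wt against 2440, 2281 and 3437 CPM under the flt3L-/- label. *Cd34* and *Ly6a* made up most of each sum, more than the transporters *Abcg2*, *Abcb1a* and *Abcb1b*. The 10 fibroblast markers, among them *Col1a1*, *Dcn* and *Pdgfra*, summed to 44470, 29760 and 22300 CPM in wt against 22050, 33650 and 10250 CPM under the flt3L-/- label. *Gsn* and *Dcn* made up most of each sum, with 26320 and 10540 CPM in the wt library of pair 1. All 10 markers had a log2 fold change below 0, 3 with an unadjusted p under 0.05 (*Col3a1*, *Col1a2* and *Col1a1*). The list's median was −0.65, with pair medians of −0.91, 0.16 and −1.33. The markers split in pair 2, where 6 of the 10 were higher, like *Dkk3*, *Wif1* and *Wnt5a*, while 4 were lower in each of the 3 pairs. Among the latter were *Col3a1*, *Col1a1* and *Col1a2*, with log2 differences of −0.61, −0.40 and −0.40 in pair 2. In that pair *Sfrp1*, *Ror1*, *Fzd7*, *Dact1* and *Fzd9* had log2 differences of −1.59, −1.10, −0.76, −1.35 and −1.61. *Kremen1*, *Sfrp2*, *Shisa2* and *Rnf43*, the rest of the members with an unadjusted p under 0.05, had −0.35, −0.28, −0.20 and −0.16.

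Markers of pericytes and smooth muscle cells summed to 467 to 926 CPM in wt and 298 to 590.2 CPM in the libraries labelled flt3L-/-, with a median log2 fold change of −0.42 and 2 markers lower at an unadjusted p under 0.05 (*Myh11* and *Abcc9*). Their pair medians of −0.55, 0.23 and −0.69 had the same signs as those of the fibroblast list. The 10 endothelial markers summed to 9216, 12270 and 12760 CPM in wt against 13190, 10330 and 14980 CPM under the flt3L-/- label. Their log2 fold changes were above 0 for 8 of 10, with a median of 0.17. Their lowest sum was in the wt library of pair 1 and their highest in the pair 3 library labelled flt3L-/-. Macrophage and monocyte markers ranged most, from 43.9 to 1774 CPM in wt and from 102 to 1041 CPM in the libraries labelled flt3L-/-. Of these sums, *Lyz2* alone held 17.1 to 1525 CPM in wt and 67.3 to 843 CPM under the flt3L-/- label. Mesothelial markers lay between 22.1 and 67.6 CPM. Cardiomyocyte markers summed to 126, 180 and 167 CPM in wt against 207, 216 and 186 CPM under the flt3L-/- label, without overlap, with 6 of 7 tested markers above 0, a median of 0.33 and 1 marker (*Tnni3*) higher at an unadjusted p under 0.05. Lymphocyte and NK cell markers summed to 42.3, 84.5 and 174 CPM in wt against 26.3, 81.8 and 24.8 CPM under the flt3L-/- label. This list had a median log2 fold change of −1.43 and pair medians of −1.07, −0.13 and −3.14, below 0 in each pair. Of its 5 tested markers, 3 were lower in each pair, *Nkg7*, *Ncr1* and *Klrb1c*, the last at an unadjusted p under 0.05. These 3 are NK cell markers. The T cell markers *Cd3e* and *Cd3g* were instead higher in pairs 1 and 2 and lower in pair 3. Their log2 fold changes were 0.22 and −0.30. Schwann cell markers summed to 3.75 to 10.3 CPM, and the glial factor *Sox10* was at 0 in every wt library. The part of these cell type differences in the values of the Wnt members was not tested.

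A further 73 genes of the pathway, outside the rule, had log2 fold changes closer to 0 in the median. Of these, 66 were tested, 44 had a log2 fold change below 0 and 22 above, with a median of −0.10, and 10 were lower and 4 higher in each pair. These are 15.2% and 6.06%, against 11.5% and 14.2% of all genes tested. With an unadjusted p under 0.05, 6 were lower (9.09%, against 2.49% of all genes tested) and 0 higher, and 0 passed after adjustment. *Daam1*, a formin of the planar cell polarity arm, had 27.4, 22.4 and 20.2 CPM in wt against 16.4, 16.8 and 13.1 CPM under the flt3L-/- label, without overlap, and a log2 fold change of −0.60 ± 0.16 (SE). The others were the glypican *Gpc6* at −0.88, the membrane Wnt inhibitor *Apcdd1* at −1.35, the Dishevelled gene *Dvl3* at −0.46, the polarity gene *Prickle2* at −0.40 and the APC paralog *Apc2* at −1.45. Without pair 2 the count in either direction was 12, and without pair 1 or pair 3 it was 2 or 1. The share of all genes that were lower at such a p moved to 5.7%, 1.97% and 1.06%. This share leaves out higher genes, so it is not a like measure to these counts.

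By arm, the medians ran from −0.43 for other secreted and membrane modulators to −0.04 for the nuclear partners of beta-catenin. The cytoplasmic beta-catenin arm, 20 of 20 tested, stood at −0.08 and the planar cell polarity arm, 14 of 17 tested, at −0.11. Among 11 transcripts that beta-catenin is known to induce in many tissues, 10 were tested and 1 had an unadjusted p under 0.05, *Apcdd1*. Their median was −0.31, with *Myc* at −0.54 and *Ccnd1* at 0.06, each within 2 standard errors of 0.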

How the data were processed

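Total RNA of sorted SP cells was sequenced in 6 libraries (wt and flt3L-/-, 3 each). The authors deposited raw read counts per gene, without normalization. According to their methods, unstranded single reads of 81 bases were mapped to mm10 with STAR 2.5.2a, a read with several equally good locations was placed on 1 of them at random, and reads starting in an exon were counted with QuasR 1.18.0 on Ensembl 88. Random placement can move reads between near-identical genes.

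Symbols, biotypes, exon lengths and exon overlaps came from GENCODE gene models on GRCm38, which held 50376 of 50600 genes. Following the study, 13475 protein-coding genes above 1 CPM in 2 or more libraries were tested in edgeR 4.0.16 (R 4.3.3) with TMM factors, glmQLFTest with legacy = TRUE and the sorting date as a covariate. P-values were adjusted by Benjamini-Hochberg across these genes. CPM uses the TMM-scaled protein-coding total. Log2 differences within pairs used a prior count of 2.

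Libraries were paired by sorting date, as in the labels and methods. After removal of group means, same-date libraries correlated at 0.180, 0.104 and 0.116 across genes and libraries of different dates at −0.354 to 0.247, so the correlations alone do not single out this pairing. Between any libraries r of log2 CPM was 0.914 to 0.976.

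The members and lists were chosen with earlier results of these data known. Every library value is given for members with an unadjusted p under 0.05, the 6 that the study lists and the 3 highest per kb in each role, and other genes were singled out after their values were seen. Alternatives were DESeq2 1.42.0, other scalings, filters and biotypes, no sorting date, and each pair left out.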

Additional observations from a re-analysis of the deposited data

How the results depend on the processing

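Under 12 other settings of the fit, 0 members passed an adjusted p under 0.05 and the median log2 fold change of the members stayed below 0, from −0.25 without the low-count filter to −0.57 without pair 2. Over all genes, DESeq2 called 21. With no replicate block, that is without pairing by sorting date, 1 member (*Rnf43*) and 1 other pathway gene had an unadjusted p under 0.05, against 9 and 6 in the paired fit. Leaving out each pair gave 3 to 9 members and 1 to 12 other pathway genes. Of 262 values for 22 named members, 250 kept their direction and 12, in 8 members, did not. Most settings refit the same libraries, and members lower in each pair can hardly reverse, so this count does not measure robustness. Without the pairing, *Fzd4* was at 0.00992 and *Rspo1* at −0.0103, and with library size only *Tcf7l1* was at −0.0103. Leaving out each pair gave log2 fold changes from −0.94 to 0.10 for *Dkk3*, −1.02 to 0.0726 for *Wif1*, −0.658 to 0.0706 for *Wnt9a*, −0.57 to 0.20 for *Fzd4*, −0.43 to 0.10 for *Fzd6*, −0.82 to 0.54 for *Rspo3*, −0.33 to 0.63 for *Rspo1* and −0.0894 to 0.129 for *Tcf7l1*. The cause was not tested. The number of sorts, 3 a group, limits the precision of all values.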
